A study of Mus musculus with 20 samples.

Results

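A panel of 9 mouse genes that mark intestinal crypt stem cells or respond to Wnt signalling was examined in the proximal colon (PC). The panel consists of Lgr5, Ascl2, Axin2, Smoc2, Ephb2, Rnf43, Myc, Sox9 and Cd44 and was chosen by name, not by expression. Of these, 8 were found among the 12701 genes of the count table, and Lgr5 was not analysed here. The samples were 20 C57BL/6 mice, an inbred laboratory strain with no allele or transgene named in the labels. All of them ate the Total Western Diet (TWD), a diet for rodents designed after what Americans eat, from weaning for 6 weeks. The 4 groups of 5 mice then received the TWD with 0, 2, 5 or 10% raw potato starch for 3 weeks. This is a resistant potato starch (RPS) that reaches the large intestine undigested, where microbes ferment it. The 0% RPS group, which continued on the TWD alone, was the control for every starch level. Each library came from 1 mouse, and the RNA came from the whole tissue rather than from isolated crypts.

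The epithelium of the colon is renewed from stem cells at the base of the crypts, and Wnt signals from the surrounding mesenchyme keep these cells dividing. When Wnt ligands bind Frizzled and Lrp receptors, beta-catenin escapes destruction and acts with TCF factors on target genes. R-spondins bind Lgr receptors and prolong the signal by removing the ubiquitin ligases Rnf43 and Znrf3 from the cell surface. The panel holds members with different roles. Ascl2 is a transcription factor of crypt stem cells, Axin2 and Rnf43 are Wnt targets that feed back to restrain the pathway, and Smoc2 encodes a secreted matrix protein that marks crypt stem cells and is also made by stromal cells. Ephb2 is a receptor that positions cells along the crypt, Cd44 is a hyaluronan receptor of crypt and immune cells, Sox9 is a transcription factor of the lower crypt, and Myc drives growth and division.

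The libraries held 20581013 to 35083751 counts. The lowest count of any panel gene was 101 (Ascl2 in replicate 1 of the 10% RPS diet), so every panel gene was well above the detection floor of 3 counts in every library. Markers of the colon epithelium (12 of 12 listed), of smooth muscle (8 of 8) and of fibroblasts (7 of 7) were all counted, so the tissue was a mixture of cell types. A lower level in such bulk RNA can mean fewer cells of a type or less RNA per cell, and these cannot be told apart. Replicate 2 of the 0% RPS diet had the highest smooth muscle score of the 20 libraries (14.87, mean log2 level of the marker list), the highest fibroblast score (12.62) and the highest leukocyte score (8.33). Whether counting used the strand of the reads is not stated, and all panel genes other than Ascl2 overlap an annotated gene on the opposite strand. Smoc2, Ephb2 and Rnf43 also overlap a gene on the same strand, so their counts are uncertain to that extent. Stretches of 50 bases shared with transcripts of other genes were rare, at 0.265% of the Smoc2 windows, 0.275% of the Ephb2 windows and 0 in the other 6 genes.

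The sequences upstream of the start site are shown for 4 panel genes, because these formed the pairs whose levels moved together across mice (Ephb2 with Cd44, and Axin2 with Rnf43). They come from RefSeq promoter windows of 250 bases before to 50 bases after the start, drawn up on GRCm38.p6 and located on GRCm39 by an exact match. Of the 8 genes, 5 had such a window (Ascl2, Axin2, Ephb2, Rnf43 and Cd44), and Rnf43 had 2. The bases from 250 to 31 before the start are printed 5′ to 3′ on the strand of the gene, with GRCm39 coordinates.
Ephb2, chr4:136563354-136563573, minus strand: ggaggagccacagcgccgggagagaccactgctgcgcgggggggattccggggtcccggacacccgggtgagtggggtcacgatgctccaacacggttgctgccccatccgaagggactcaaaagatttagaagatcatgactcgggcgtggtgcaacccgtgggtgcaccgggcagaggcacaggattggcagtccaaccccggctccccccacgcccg
Cd44, chr2:102732041-102732260, minus strand: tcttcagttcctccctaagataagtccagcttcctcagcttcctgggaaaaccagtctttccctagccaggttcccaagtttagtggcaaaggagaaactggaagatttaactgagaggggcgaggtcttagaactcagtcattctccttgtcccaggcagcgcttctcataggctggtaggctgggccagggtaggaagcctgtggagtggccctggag
Axin2, chr11:108810925-108811144, plus strand: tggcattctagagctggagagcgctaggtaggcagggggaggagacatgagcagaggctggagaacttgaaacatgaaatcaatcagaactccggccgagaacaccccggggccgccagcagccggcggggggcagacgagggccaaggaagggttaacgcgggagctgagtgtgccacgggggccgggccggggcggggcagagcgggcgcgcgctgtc
Rnf43, chr11:87553663-87553882, plus strand: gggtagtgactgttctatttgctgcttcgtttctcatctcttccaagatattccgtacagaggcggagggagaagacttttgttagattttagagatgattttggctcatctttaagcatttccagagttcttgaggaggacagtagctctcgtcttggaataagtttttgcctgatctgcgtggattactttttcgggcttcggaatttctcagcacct
The window shown for Rnf43 is the first of its 2 and lies within an exon of an annotated Rnf43 transcript that retains an intron. The core of the motif bound by TCF factors, ATCAAAG or its reverse complement CTTTGAT, occurred in none of the 6 windows, while 3.73% of the 32851 mouse promoter windows hold it. The SOX core, AACAAT or ATTGTT, occurred in the second Rnf43 window and in none of the other 5, against 10.7% of all windows. All letters above are therefore in lower case. The windows differed in base composition, with a GC content of 70.0% for Axin2, 68.7% for Ephb2, 67.0% for Ascl2, 58.0% for Cd44 and 46.7% for the first Rnf43 window, against a median of 52.7% over all windows.

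The abundance of the panel genes was compared per length, as TPM, which scales the counts by the summed exon length of the gene and by library size. Cd44 was the most abundant at 46.4 ± 12.1 TPM (mean ± SD, n = 20), and Smoc2 was the least abundant at 7.69 ± 1.51 TPM. Between them stood Sox9 (36.1 TPM), Myc (32.3 TPM), Ephb2 (21.9 TPM), Rnf43 (17.7 TPM), Axin2 (15.1 TPM) and Ascl2 (12.5 TPM). Among the 12682 genes with a known length, Cd44 stood at percentile 79.9, Axin2 at 49.5 and Smoc2 at 28.9. Some neighbours in this order were not separated beyond their spread. Sox9 exceeded Myc in 12 of 20 libraries, with a mean log2 difference of 0.16 ± 0.41 (SD), and Axin2 exceeded Ascl2 in 15, with 0.29 ± 0.33. Ascl2 exceeded Smoc2 in all 20 libraries, with 0.69 ± 0.46, and Rnf43 exceeded Axin2 in 19, with 0.23 ± 0.18. The order depended on the length used. With the longest annotated transcript as the length, 2 of the 8 genes kept their place (Cd44 and Axin2), and Smoc2 rose to 12.9 TPM, above Ascl2 at 10.2 TPM. The spread between mice was largest for Cd44, with a coefficient of variation of 27.6% of the normalised counts, and for Ascl2, with 24.4%, and ranged from 15.4% to 17.9% in the other 6 genes.

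Each starch level was compared with 0% RPS to ask whether RPS altered crypt and Wnt gene expression. The criteria in DESeq2 were an adjusted p (Benjamini-Hochberg, over all genes) of at most 0.05 together with a 1.5-fold change. By this rule no panel gene changed at 2% RPS (0 of 8, against 0.0239% of all genes tested), at 5% RPS (0 of 8, against 0.438%) or at 10% RPS (0 of 8, against 0.9%). edgeR's quasi-likelihood test also called 0 of the 8 at each level, where it called 0, 0.0566% and 0.323% of all genes. Without adjustment, 0, 1 and 3 of the 8 had p under 0.05 in DESeq2, against 8.7%, 16.6% and 18.8% of all genes. The median log2 fold change of the 8 genes was −0.11 at 2% RPS, −0.12 at 5% RPS and −0.14 at 10% RPS, while that of all genes was within 0.01 of 0. Fitted values were negative for 7, 5 and 5 of the 8 genes, against 52.3%, 52.6% and 49.9% of all genes.

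**Figure D1:**
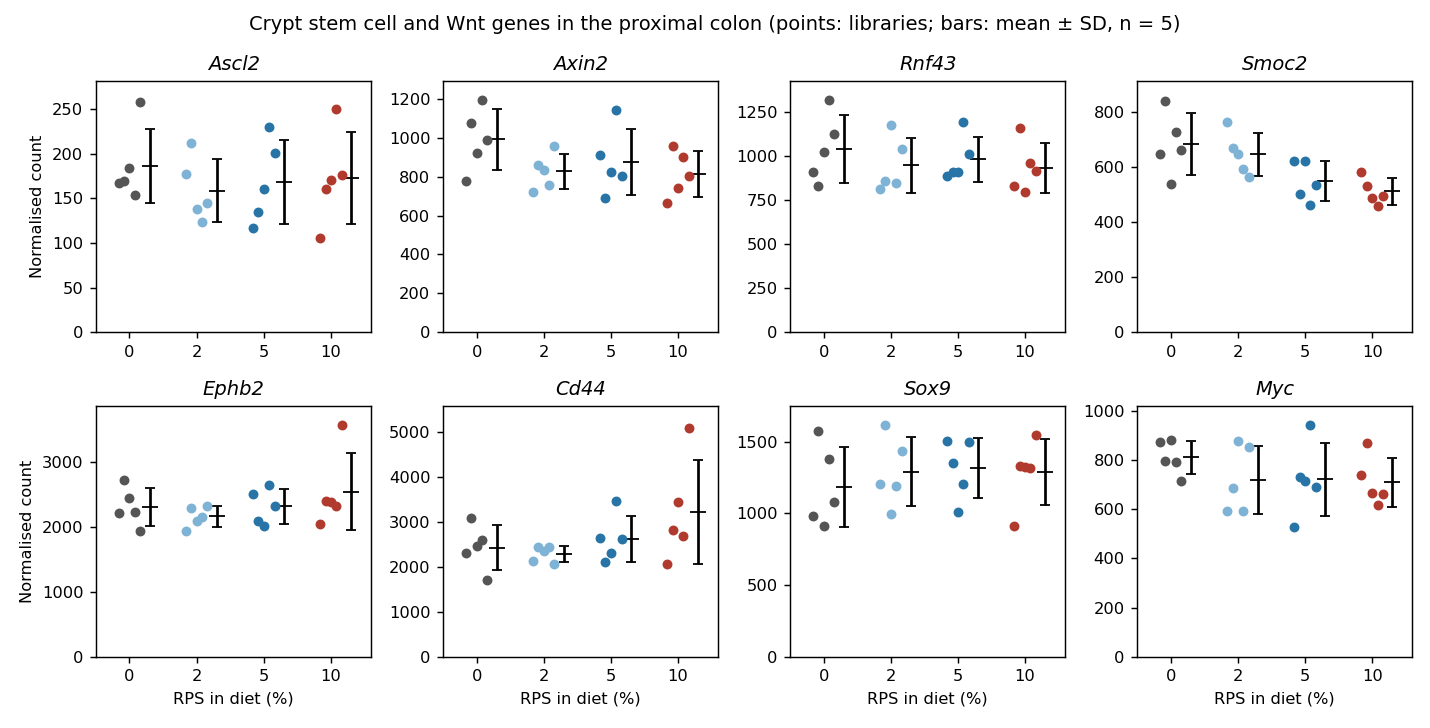
Normalised counts (vertical axis) of the 8 genes against the percentage of RPS in the diet (horizontal axis). Points are libraries, with the mean ± SD of the 5 mice of each diet beside them. Smoc2 means went from 685 at 0% RPS to 512 at 10% RPS, and 1 library of the 10% RPS diet stood apart in Ephb2 (3569) and Cd44 (5111).

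Smoc2 was the panel gene with a dose trend. It fell along the percentage of RPS, with a slope of −0.043 ± 0.011 on the log2 scale per percent RPS (SE; DESeq2 adjusted p = 0.00731, edgeR adjusted p = 0.0427), and was 1 of 8 panel genes called in the trend, against 4.29% of all genes (1.89% for a fall). edgeR called 1.33% of all genes in the trend. The Smoc2 normalised counts were 649, 843, 538, 728.7 and 664 in the 5 mice on 0% RPS. They were 766, 671, 649, 593 and 564 on 2% RPS, and 625, 504, 623, 462 and 537 on 5% RPS. On 10% RPS they were 583, 534, 488, 459 and 497. The 10% RPS libraries overlapped the control range in 1 mouse, since 4 of 5 lay below the lowest control of 538, while no 2% RPS library did. Over all genes, 2.52% had 10% RPS libraries that did not overlap the controls, and 1.17% had them all lower. Compared with 0% RPS, Smoc2 had a log2 fold change of −0.08 ± 0.12 (SE) at 2% RPS (DESeq2 adjusted p = 0.885), −0.32 ± 0.12 at 5% RPS (adjusted p = 0.142) and −0.42 ± 0.12 at 10% RPS (adjusted p = 0.0208, edgeR adjusted p = 0.0707). The 10% RPS level was thus 0.748 of the control (95% Wald interval 0.636 to 0.881), short of the fold threshold. At an adjusted p of 0.05 without the fold threshold, 4.6% of all genes passed at 10% RPS. Over the 4 diets together Smoc2 was again 1 of 8 called by DESeq2's likelihood ratio test (adjusted p = 0.049, with 2.38% of all genes called) and was not past the threshold with edgeR (adjusted p = 0.218, with 0.0566% called). The DESeq2 call over the 4 diets was lost in 13 of the 20 fits that left out 1 library.

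The Smoc2 trend was past the threshold in all 20 fits that left out 1 library, with slopes from −0.049 to −0.037. When the 3 libraries numbered outside the run of the rest in the labels were omitted (replicate 5 of 2% RPS and replicates 4 and 5 of 10% RPS), the slope was −0.041 and the adjusted p 0.0781. At 10% RPS, Smoc2 had a log2 fold change without replicate 2 of the controls of −0.33 (adjusted p = 0.0529). Its adjusted p at 10% RPS was at most 0.05 in 14 of the 20 fits that left out 1 library.

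**Figure D2:**
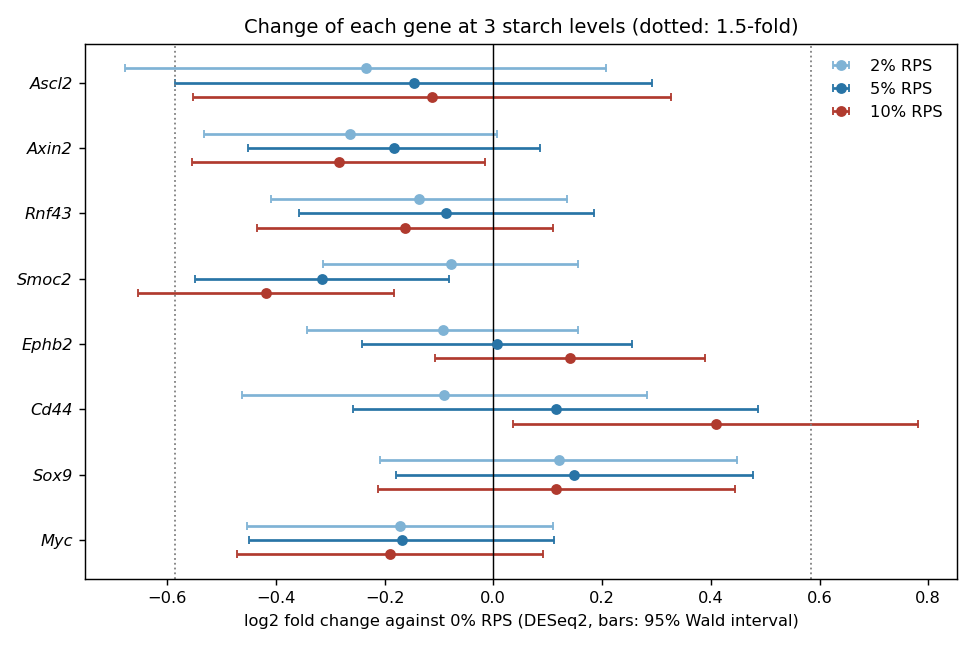
Log2 fold change against 0% RPS (horizontal axis) for each gene at 2, 5 and 10% RPS, with 95% Wald intervals from DESeq2 and dotted lines at 1.5-fold. The Smoc2 interval at 10% RPS ran from −0.65 to −0.18 and that of Cd44 from 0.04 to 0.78.

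Neither feedback inhibitor of the panel passed the threshold. Axin2 averaged 993 ± 156 normalised counts at 0% RPS, 828 ± 92.0 at 2% RPS, 875 ± 170.1 at 5% RPS and 815 ± 118 at 10% RPS (SD, n = 5 each). The individual Axin2 values were 780, 1076, 923, 1194 and 992 at 0% RPS and 666, 959, 743, 902 and 806 at 10% RPS, so 2 of the 5 mice on 10% RPS lay below the lowest control. The log2 fold change of Axin2 was −0.26 at 2% RPS (DESeq2 adjusted p = 0.575), −0.18 at 5% RPS (0.512) and −0.28 ± 0.14 (SE) at 10% RPS (0.230), and −0.24 for any RPS against none (0.193). Rnf43 averaged 1041 ± 192 normalised counts at 0% RPS and 947, 981 and 930.2 at the 3 starch levels, with log2 fold changes of −0.14, −0.09 and −0.16 (adjusted p = 0.813, 0.785 and 0.538). The Rnf43 libraries of the diets overlapped, with 827 to 1318 at 0% RPS and 793 to 1158 at 10% RPS. The 95% Wald intervals at 10% RPS were −0.55 to −0.02 for Axin2 and −0.43 to 0.11 for Rnf43.

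Ascl2, which is required for the crypt stem cell state, had 187 ± 41.4 normalised counts at 0% RPS and 159, 169 and 173 at 2, 5 and 10% RPS. Its log2 fold changes were −0.24, −0.15 and −0.11 (DESeq2 adjusted p = 0.795, 0.773 and 0.821). The controls ranged from 154 to 258, and 4 of the 5 mice on 10% RPS lay within that range, with the other at 105. With an SE of 0.22 to 0.23, the 95% interval of Ascl2 at 10% RPS was −0.55 to 0.33.

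Ephb2 and Cd44, the surface receptors of the panel, had their highest mean at 10% RPS. Ephb2 normalised counts were 2208, 2719, 2444, 2227 and 1941 at 0% RPS and 2046, 2402, 2390, 2319 and 3569 at 10% RPS. Cd44 normalised counts were 2307, 3088, 2471, 2596 and 1710 at 0% RPS and 2078, 2824, 3453, 2693 and 5111 at 10% RPS. Replicate 5 of the 10% RPS diet thus had the highest value of both genes, and the other 4 mice overlapped the controls in Ephb2. Replicate 5 also had the highest pan-epithelial score of the 20 libraries (14.50, mean log2 level of 12 epithelial markers). The Ephb2 log2 fold changes were −0.09, 0.01 and 0.14 at 2, 5 and 10% RPS (DESeq2 adjusted p = 0.867, 0.988 and 0.560), and the last was −0.01 without that mouse. For Cd44 they were −0.09, 0.12 and 0.41 ± 0.19 (SE; adjusted p = 0.920, 0.792 and 0.210), and the last was 0.18 without that mouse. The Cd44 level at 10% RPS was 1.33 times the control, with an interval of 1.03 to 1.72. Without the 3 libraries numbered outside the run, which include that mouse, the Cd44 log2 fold change was 0.19 (adjusted p = 0.655). With the pan-epithelial score as a covariate it was 0.24 (adjusted p = 0.749). The Cd44 slope was 0.046 ± 0.017 per percent RPS (adjusted p = 0.104). It passed the threshold when replicate 2 of the 0% RPS diet was left out (0.055, adjusted p = 0.0291) or replicate 1 of the 10% RPS diet (0.057, adjusted p = 0.0232), and it was 0.023 without replicate 5 of the 10% RPS diet.

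The transcription factors Sox9 and Myc did not pass the threshold either. Sox9 had 1185 ± 280.1 normalised counts at 0% RPS and 1289, 1314 and 1285 at 2, 5 and 10% RPS, which gave log2 fold changes of 0.12, 0.15 and 0.12 (DESeq2 adjusted p = 0.870, 0.682 and 0.741). Myc had 810.3 ± 68.6 at 0% RPS and 719.4, 721.3 and 710.1 at the starch levels, which gave −0.17, −0.17 and −0.19 (adjusted p = 0.751, 0.568 and 0.477). Of the 10% RPS libraries, 3 of 5 had less Myc than the lowest control of 713. The 95% intervals at 10% RPS were −0.21 to 0.44 for Sox9 and −0.47 to 0.09 for Myc.

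The 3 starch diets pooled against 0% RPS gave no call among the panel genes (0 of 8 in DESeq2, against 0.565% of all genes, and 0 of 8 in edgeR, against 0.0809%), with Smoc2 at −0.27 ± 0.10 (adjusted p = 0.0813). The starch levels were also compared with each other. No panel gene differed between 10% and 2% RPS (0 of 8, against 0.0557% of all genes in DESeq2, and 0 of all genes in edgeR) or between 10% and 5% RPS (0 of 8, against 0.00796%, and 0 in edgeR). The largest differences between 10% and 2% RPS were a log2 fold change of 0.50 ± 0.19 for Cd44 (unadjusted p = 0.00868, adjusted p = 0.342) and −0.34 ± 0.12 for Smoc2 (0.00482 and 0.265).

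The panel genes were then compared with each other across the 20 mice, on log2(normalised count + 1). Among the 28 pairs, 2 passed an adjusted p of 0.05 in a two-sided permutation test with 100000 resamples, and the median r was 0.13. Ephb2 and Cd44 rose and fell together (r = 0.90, permutation adjusted p = 0.00056; rho = 0.81, permutation adjusted p = 0.0014). Without the 2 mice farthest from the Ephb2 median r was 0.79, and with the diet means removed it was 0.89. Within the diets, of 5 mice each, r was 0.93 at 0% RPS, 0.14 at 2% RPS, 0.88 at 5% RPS and 0.95 at 10% RPS. Axin2 and Rnf43 formed the other pair (r = 0.68, permutation adjusted p = 0.0169; rho = 0.65, permutation adjusted p = 0.0342), with r = 0.47 without the 2 farthest mice, 0.64 with the diet means removed and 0.82 without replicate 2 of the 0% RPS diet. Rnf43 and Myc had r = 0.59 (permutation adjusted p = 0.0589), which passed without replicate 2 of the 0% RPS diet (r = 0.65, permutation adjusted p = 0.0265; rho = 0.64, permutation adjusted p = 0.032). Sox9 had r = 0.51 with Ephb2 (permutation adjusted p = 0.118). Smoc2 had r between −0.37 and 0.17 with the other 7 genes and Ascl2 between −0.16 and 0.40, none past the threshold. Without that control Smoc2 had r = −0.55 with both Ephb2 and Cd44 (permutation adjusted p = 0.0735 for each). The libraries share the normalisation and the tissue sample, so these relations describe how the samples varied. The promoter windows printed above for both pairs held neither motif core, but few windows do (3.73% of all windows for TCF and 10.7% for SOX). The second Rnf43 window, which is not printed, held the SOX core. Whether the genes of a pair share control by these factors was not tested.

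**Figure D3:**
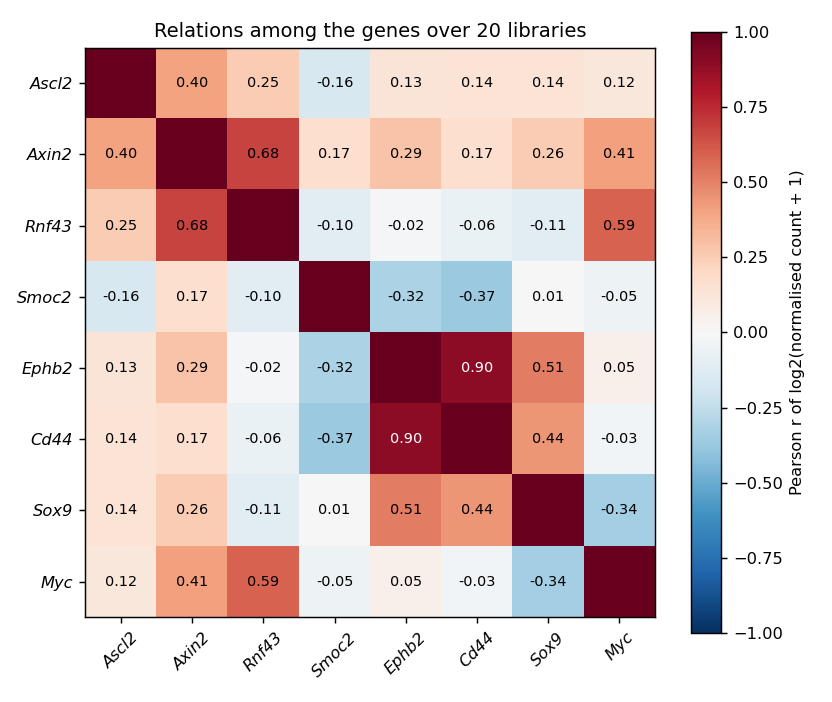
Pearson r between the panel genes over 20 libraries, coloured from −1 (blue) to 1 (red), with each value printed. Ephb2 with Cd44 (0.90) and Axin2 with Rnf43 (0.68) are the strongest cells off the diagonal, and the Smoc2 row is near 0 or below.

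The genes most like each panel gene were taken as the 3 with the highest r over the 20 libraries among the 11541 genes whose normalised counts averaged 100 or more, as a description. Ephb2 and Cd44 were nearest to each other, and both had Mgat5 among their 3 (r = 0.88 and 0.87). Lrp5, a Wnt co-receptor, was the next nearest to Ephb2 (0.88), and Btg3 to Cd44 (0.89). Smoc2 was nearest to Gm11946 (0.91), Ltbp4, which encodes a binding protein of latent TGF-beta (0.90), and Ldhb (0.90). Axin2 was nearest to Plppr3 (0.82), Gpld1 (0.81) and 5430416N02Rik (0.81), and Rnf43 to Glb1 (0.84), Ighmbp2 (0.83) and Stra6l (0.82). Sox9 was nearest to Cbs (0.84), Rab3d (0.83) and Gopc (0.80), Myc to Fgd3 (0.75), Vipas39 (0.73) and Ddx10 (0.70), and Ascl2 to Cyp2s1 (0.68), Bmp2 (0.68) and Afmid (0.68). No other panel gene was among the 3 nearest to Ascl2, Axin2, Smoc2, Rnf43, Myc or Sox9.

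The relation of the panel to other cell types in the samples was measured with marker scores, each the mean log2(normalised count + 1) of a list. Of 32 relations with epithelial, colonocyte, smooth muscle and leukocyte scores, 4 passed an adjusted p of 0.05. Smoc2 was higher in mice with a higher smooth muscle score (r = 0.75, permutation adjusted p = 0.00512; rho = 0.73, permutation adjusted p = 0.0115). This r was 0.72 without the 2 farthest mice, 0.83 with the diet means removed and 0.67 without replicate 2 of the 0% RPS diet. Among 16 relations added after the data had been seen, Smoc2 also followed the fibroblast score (r = 0.75, permutation adjusted p = 0.00096; rho = 0.65, permutation adjusted p = 0.0392). Without replicate 2 of the 0% RPS diet these were r = 0.66 (permutation adjusted p = 0.04) and rho = 0.59 (permutation adjusted p = 0.135). Axin2 and Rnf43 were lower where the colonocyte score was higher (Axin2 r = −0.71, permutation adjusted p = 0.00736; Rnf43 r = −0.64, permutation adjusted p = 0.0198), and their rho was −0.69 (permutation adjusted p = 0.0122) and −0.61 (permutation adjusted p = 0.0357). Rnf43 was also lower where the leukocyte score was higher (r = −0.62, permutation adjusted p = 0.0268; rho = −0.70, permutation adjusted p = 0.0122), though r was −0.59 without replicate 2 of the 0% RPS diet (permutation adjusted p = 0.0612) and rho −0.66 (permutation adjusted p = 0.0216). Without that control Rnf43 and the colonocyte score had r = −0.63 (permutation adjusted p = 0.0422) and rho = −0.57 (permutation adjusted p = 0.0618). Without the 2 farthest mice the values of r for Axin2 and Rnf43 with the colonocyte score and Rnf43 with the leukocyte score were −0.53, −0.48 and −0.66. The colonocyte score weighs its 10 genes equally. Of these, Aqp8 had 1653 ± 2712 normalised counts at 0% RPS and 869 ± 1226 at 10% RPS (mean ± SD). The part of Aqp8 in these relations was not tested.

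**Figure D4:**
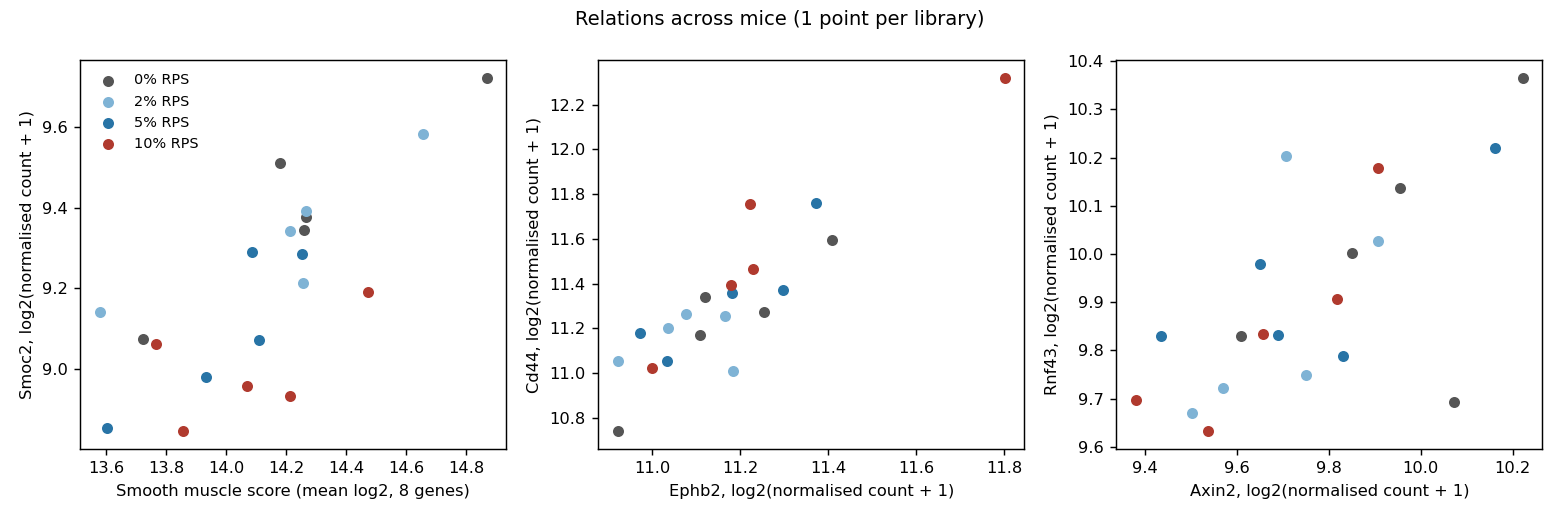
Left, Smoc2 against the smooth muscle score, in the middle Cd44 against Ephb2 and right Rnf43 against Axin2, all on log2 scales, with 1 point per library coloured by diet. The control with the highest smooth muscle score (14.87) had the highest Smoc2 level, and the 10% RPS library at the upper right of the middle panel is replicate 5.

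No smooth muscle or fibroblast marker passed the threshold. At 10% RPS all 8 smooth muscle markers and all 7 fibroblast markers had negative values, and 0 of 8 and 0 of 7 were called by DESeq2 or edgeR. Of the markers, 0 and 2 had an unadjusted p under 0.05 in DESeq2, against 18.8% of all genes. Their medians were −0.20 and −0.23. The smooth muscle score ranged from 13.7 to 14.9 at 0% RPS and from 13.8 to 14.5 at 10% RPS, and the fibroblast score from 11.2 to 12.6 and from 11.3 to 11.8. Myh11 and Acta2, contractile genes of smooth muscle, had log2 fold changes of −0.19 and −0.13 at 10% RPS, and the mesenchymal genes Col3a1 and Vim −0.32 and −0.21. The Smoc2 slope over percent RPS was −0.043 without a covariate. It was −0.033 with the smooth muscle score as a covariate (DESeq2 adjusted p = 0.00088) and −0.033 with the fibroblast score (adjusted p = 0.0016). With the pan-epithelial score the slope was −0.042, with a higher adjusted p of 0.0389. At 10% RPS the Smoc2 log2 fold change with the pan-epithelial score was −0.39 and not past the threshold (DESeq2 adjusted p = 0.175). It was −0.32 with the smooth muscle score (adjusted p = 0.0035) and −0.30 with the fibroblast score (adjusted p = 0.0097).

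The rest of the Wnt pathway was followed by role. Of 18 listed ligand, R-spondin and secretion genes, 5 were in the table. At 10% RPS 1 of the 5 was called by DESeq2 and edgeR, with a fall, against 0.9% and 0.323% of all genes. This was Rspo3, an R-spondin made by mesenchymal cells, whose log2 fold change was −0.88 ± 0.22 (SE; DESeq2 adjusted p = 0.00481, edgeR adjusted p = 0.0421). Rspo3 had 106, 183, 105, 117 and 141 normalised counts in the controls and 72, 58, 67, 90 and 68 at 10% RPS, so the diets did not overlap. Over all genes, 2.52% had 10% RPS libraries that did not overlap the controls, and 1.17% had them all lower. Rspo3 also fell in the trend (−0.076 per percent RPS, adjusted p = 0.0174, edgeR adjusted p = 0.0603) and for any RPS against none (−0.66, adjusted p = 0.0115, edgeR adjusted p = 0.0649), and differed over the 4 diets (adjusted p = 0.0299, edgeR adjusted p = 0.196). DESeq2 called 4.29%, 0.565% and 2.38% of all genes in these 3 comparisons. At 10% RPS Rspo3 was called in 20 of 20 fits without 1 library, with −0.72 without replicate 2 of the 0% RPS diet (adjusted p = 0.0158). Without that control the value for any RPS was −0.51 (adjusted p = 0.0527).

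Of 18 listed receptors and co-receptors 14 were in the table and 0 were called at a starch level by DESeq2 or edgeR. Of these, 1, 3 and 3 had an unadjusted p under 0.05 in DESeq2 at 2, 5 and 10% RPS, against 8.7%, 16.6% and 18.8% of all genes. Fzd2, a Wnt receptor, fell in the trend (−0.045 per percent RPS, DESeq2 adjusted p = 0.0385, edgeR adjusted p = 0.0894), in 13 of 20 fits without 1 library. Of 15 genes of signal transduction and the nucleus, Dvl2, which relays the signal from Frizzled, fell in the trend (−0.039 per percent RPS, adjusted p = 0.0241, edgeR adjusted p = 0.0728), in 16 of 20 such fits. These were 1 of 14 receptors and 1 of 15 transduction genes called, where 4.29% of all genes were called in the trend. Neither was past the threshold without the 3 libraries numbered outside the run (adjusted p = 0.144 for Fzd2 and 0.0853 for Dvl2). Of 16 listed Wnt inhibitors, 8 were in the table and 0 were called in any comparison by DESeq2 or edgeR. At 10% RPS their median was −0.17, and 1 of 8 had an unadjusted p under 0.05 in DESeq2, against 18.8% of all genes. Those with the highest mean normalised counts, Dkk3 and Kremen1, had log2 fold changes of −0.18 and −0.16.

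Among 9 other Wnt targets in the table, Cldn2, which encodes a pore-forming claudin of the crypt, rose at 10% RPS (0.71 ± 0.20, DESeq2 adjusted p = 0.0208, edgeR adjusted p = 0.0896) and in the trend (0.069 per percent RPS, adjusted p = 0.012, edgeR adjusted p = 0.065). This was 1 of 9 called by DESeq2 in each, against 0.9% and 4.29% of all genes, and edgeR called 0 of the 9. Cldn2 had 6319, 6937, 6064, 5726 and 2977 normalised counts in the controls and 5990, 9439, 9560, 7149 and 13626 at 10% RPS, so 1 mouse on 10% RPS lay within the control range. The highest was the same mouse, replicate 5, that was highest in Ephb2 and Cd44. Cldn2 was called at 10% RPS in 16 of 20 fits without 1 library (0.52 to 0.83, adjusted p up to 0.153) and in the trend in 19 of 20. Without the 3 libraries numbered outside the run it was at 0.57 at 10% RPS (adjusted p = 0.165) and its slope was 0.059 (adjusted p = 0.1). Among 11 other crypt base genes in the table, Prom1, a membrane protein of crypt progenitors, rose in the trend (0.033 per percent RPS, adjusted p = 0.00317, edgeR adjusted p = 0.0421) in 20 of 20 fits without 1 library. This was 1 of 11 called in the trend, against 4.29% of all genes. Prom1 differed over the 4 diets as well (adjusted p = 0.00692, edgeR adjusted p = 0.16), where DESeq2 called 2.38% of all genes. It went from 11976 ± 1277 normalised counts at 0% RPS to 13277, 14646 and 15175 ± 902 at 2, 5 and 10% RPS, and at 10% RPS it was at 0.34 ± 0.08 (adjusted p = 0.0021), below the fold threshold.

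The niche list held 22 BMP, Notch and EGF pathway genes, of which 0 were called by DESeq2 or edgeR at 2, 5 or 10% RPS. An unadjusted p under 0.05 in DESeq2 was found for 4, 6 and 5 of them, against 8.7%, 16.6% and 18.8% of all genes. Grem1, a BMP antagonist made below the crypts by mesenchymal cells, was called for any RPS (−1.11 ± 0.32, adjusted p = 0.0263, edgeR adjusted p = 0.0727; 1 of 22 called, against 0.565% of all genes), but its controls were 309, 1567, 255, 405 and 337, and without replicate 2 it was at −0.29 (adjusted p = 0.253). Id3, a target of BMP signalling, differed over the 4 diets (adjusted p = 0.0107, edgeR adjusted p = 0.158; DESeq2 called 2.38% of all genes), with 2461 ± 224 normalised counts at 0% RPS, 2933 ± 629 at 2% RPS, 3615 ± 367 at 5% RPS and 2973 ± 230 at 10% RPS. It was at 0.55 ± 0.12 at 5% RPS (DESeq2 adjusted p = 0.00225, edgeR adjusted p = 0.0645) and at 0.36 for any RPS (0.0162 and 0.0769). Both values were below the fold threshold. Of the ephrins and Eph receptors that partner Ephb2, 3 were in the table and 0 were called by DESeq2 or edgeR at any level, with 0 at an unadjusted p under 0.05, and the ligands Efnb1 and Efnb2 were at −0.02 and 0.11 at 10% RPS.

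**Figure D5:**
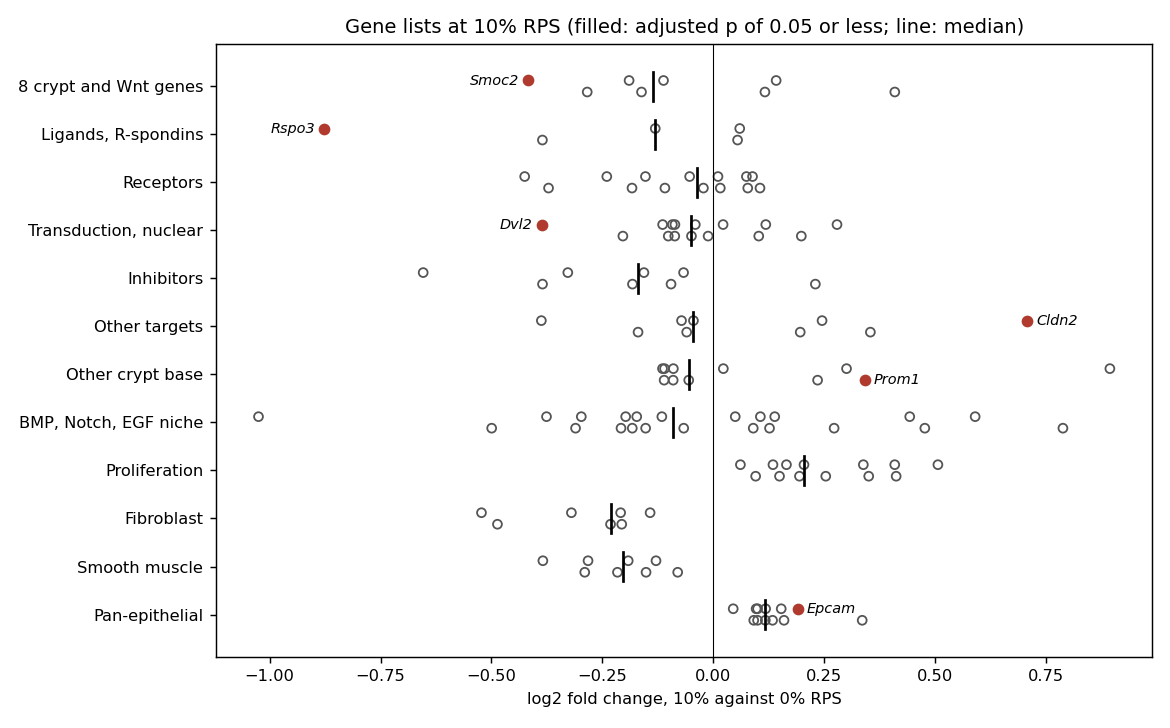
Log2 fold change at 10% against 0% RPS (horizontal axis) for each gene of the panel and of 11 lists (rows). Filled points passed a DESeq2 adjusted p of 0.05 and are named, open points did not, and vertical lines are list medians. Among the filled points Rspo3 (−0.88) lies farthest left and Cldn2 (0.71) farthest right, while the panel median is −0.14.

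No gene of the proliferation list was called. All 13 genes had positive values at 10% RPS, with a median of 0.20, and 0 of 13 were called by DESeq2 or edgeR. Of the 13, 3 had an unadjusted p under 0.05 in DESeq2, against 18.8% of all genes. Mki67 and Pcna, markers of cycling cells, were at 0.20 ± 0.17 and 0.25 ± 0.13 (SE). The proliferation score ranged from 9.57 to 10.1 at 0% RPS and from 9.83 to 10.3 at 10% RPS. The pan-epithelial, colonocyte and goblet lists held 1 of 12, 1 of 10 and 1 of 7 genes called in the trend, against 4.29% of all genes. Epcam, an adhesion protein of all epithelial cells, rose by 0.016 per percent RPS (DESeq2 adjusted p = 0.023, edgeR adjusted p = 0.122), Car4, a carbonic anhydrase of surface colonocytes, by 0.036 (adjusted p = 0.0329, edgeR adjusted p = 0.0872), and Agr2, a protein folding factor of goblet cells, by 0.053 (adjusted p = 0.0358, edgeR adjusted p = 0.0969). Without the 3 libraries numbered outside the run none of these trends passed (adjusted p = 0.143 for Epcam, 0.132 for Car4 and 0.317 for Agr2, whose slope was then 0.035). Epcam and Car4 were called in 16 of 20 fits without 1 library and Agr2 in 13. Medians at 10% RPS were 0.12 over 12 pan-epithelial genes, 0.21 over 10 colonocyte genes and 0.46 over 7 goblet genes. All 12 pan-epithelial and all 7 goblet genes had positive values there. The colonocyte genes were divided, with 8 positive and 2 negative at 10% RPS and 7 and 3 in the trend. The median colonocyte score was 13.57 at 0% RPS and 13.36 at 10% RPS. Of 5 enteric glia and neuron genes, 0 were called by DESeq2 or edgeR (1 at an unadjusted p under 0.05 in DESeq2 at 10% RPS, against 18.8% of all genes), and all 5 had negative values at 10% RPS, with −0.33 for Uchl1 and −0.24 for Tubb3, both neuronal. None of the 4 Paneth cell genes or 6 leukocyte genes in the table was called by DESeq2 or edgeR (1 and 1 at an unadjusted p under 0.05 in DESeq2 at 10% RPS, against the same 18.8%). Ang4 and Lyz1 were at −0.23 and 0.49, and Lyz2 and Laptm5 at −0.02 and 0.11. The part of these cell types in the values of the panel genes was not tested, apart from the smooth muscle, fibroblast and epithelial covariates.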

How the data were processed

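RNA of the proximal colon was sequenced as stranded mRNA libraries with single-end reads of 50 bases. The deposited values are raw counts for Ensembl genes. By the published methods, the authors trimmed the reads, removed those with more than 2 ambiguous bases, and aligned and counted them on GRCm39 in CLC Genomics Workbench. The whole-number values sum to a different total in each library, and each column is 1 mouse. The annotation, strand setting, treatment of reads matching several places and filter on genes are not given in the sources used here. Depth ran from 20581013 to 35083751 counts per library. Diets came from the labels, and columns were matched by label number.

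DESeq2 (version 1.42.0, R 4.3.3) was fitted to the raw counts of all 20 libraries with diet, or the percentage of RPS for the trend, as the only term. p was adjusted over all genes, at 0.05 with a fold change of 1.5; the trend and the test over 4 diets had no fold threshold. edgeR (version 4.0.16, quasi-likelihood) was the main alternative. Normalised counts are counts divided by size factors, and TPM used exon lengths of GENCODE M39, in which 12682 of 12701 identifiers were found. Correlations used two-sided permutation with 100000 resamples. svaseq came from sva (version 3.50.0). Checks on simulated data covered the comparison of the highest starch level with the control and the permutation test. The trend, the test over 4 diets and the comparison of the pooled starch diets were not checked in this way.

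All panel genes were named. Of each list the genes called in any comparison, at most 5, were named, or the 2 with the highest mean normalised counts where none was called. Aqp8 was named as well, for its spread between mice. Some listed genes are not reported here and were left out of the counts and medians of their lists. The panel, the lists and the tests were chosen with earlier results of these data known. Other settings were TMM or epithelial size factors, a filter of 10 counts in 5 libraries, filtering switched off, other fold thresholds, covariates, only the diets compared, and omission of libraries. Relations with fibroblast and proliferation scores, the fibroblast covariate, and values of list genes without replicate 2 of the 0% RPS diet, were added after the data had been seen. Replicates came from separate mice.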

Additional observations from a re-analysis of the deposited data

Results flagged for a closer look

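Replicate 5 of the 10% RPS diet had 3569 normalised counts of Ephb2 and stood apart from the other 4 mice of its diet, whose values ran from 2046 to 2402. The gap was 0.767 of the range of the group, above the critical value of 0.71 for 5 samples. Of 32 groups of gene and diet examined, 1 was flagged, and chance flags about 1 in 20. The same mouse had the highest Cd44 level (5111). The log2 fold change of Ephb2 at 10% RPS was 0.14 with this mouse and −0.01 without it.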

How the results depend on the processing

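Of the panel genes, 1 was called at 10% RPS (Smoc2) when the fold threshold was dropped. In the trend, 2 members were called with 1 surrogate variable (Smoc2 and Cd44), 0 without the 3 libraries numbered outside the run, and 1 to 2 when each library was left out. Over the 4 diets, 0 members were called with edgeR, with the pan-epithelial score as a covariate or without those 3 libraries, and 0 to 1 when each library was left out. In the order of levels, 2 of 8 members kept their place with the longest transcript as the length. Relations past the threshold among the members were 4 with size factors from pan-epithelial genes, against 2. Those size factors moved the median of all genes by −0.15, −0.12 and −0.13 at 2, 5 and 10% RPS.

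Signs turned only in values that were not called. With pan-epithelial size factors Sox9 was at −0.055 at 2% RPS and −0.021 at 10% RPS, Ephb2 at −0.11 and Cd44 at −0.0036 at 5% RPS. With the pan-epithelial score as a covariate Ephb2 was at −0.13, Cd44 at −0.037 and Rnf43 at 0.042 at 5% RPS. With the smooth muscle score Ephb2 was at −0.025 at 5% RPS, with the fibroblast score Smoc2 was at 0.0049 at 2% RPS, and without the 3 libraries Ephb2 was at −0.018 at 10% RPS. When each library was left out, values also crossed 0 for Smoc2 (−0.15 to 0.0079) and Cd44 (−0.19 to 0.011) at 2% RPS, for Ephb2 (−0.049 to 0.072), Rnf43 (−0.17 to 0.014) and Cd44 (−0.0035 to 0.22) at 5% RPS, and for Ascl2 (−0.28 to 0.031) and Ephb2 (−0.012 to 0.21) at 10% RPS, and for the Ascl2 slope (−0.022 to 0.0077). The cause was not tested. Of the other values for single members, 411 kept their sign and their side of the threshold, as did 624 of those with 1 library left out. No paired analysis was possible because each mouse ate 1 diet and gave 1 library, and the labels pair no mice. With 5 mice a diet, the SE of a log2 fold change against 0% RPS was 0.12 to 0.23 for the panel, which limits the precision of each value.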
